A study of Mus musculus with 8 samples.

Results

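Gated cells were E8.5 mouse embryo cells with Isl1 transcripts together with transcripts of Tbx1, Fgf10 or Tcf21, a combination taken here as a gate for mesoderm of the pharynx and of the second heart field. A cell entered the gate with at least 1 UMI (unique molecular identifier, the count of 1 captured transcript) of Isl1, at least 1 UMI of at least 1 of Tbx1, Fgf10 and Tcf21, no UMI of the epithelial gene Epcam, and at most 4 of the 7 heart muscle genes Tnnt2, Myl7, Myl4, Actc1, Ttn, Myh6 and Csrp3 detected. The cells were chosen by these UMI counts. The gate held 2106 of the 37186 cells kept at E8.5, or 5.66% of them, and the series as a whole had 49838 kept cells. Of the gated cells, 1529 came from Tet-TKO libraries and 577 from WT host libraries.

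The cells came from chimaeric embryos. Tet-TKO embryonic stem cells, in which Tet1, Tet2 and Tet3 are deleted and which carry a nuclear tdTomato reporter under the CAG promoter, had been injected into wild-type C57BL/6J blastocysts, and at E8.5 the embryos were pooled and sorted into a tdTomato+ fraction, called Tet-TKO below, and a tdTomato- fraction, called WT host. For this stage 4 Tet-TKO and 2 host libraries were made with 10x Genomics 3′ chemistry. The Tet-TKO cells were derived from a single line with a mixed C57BL/6J and 129Sv background, while the host was C57BL/6J. The Tet-TKO cells had also been kept in culture as stem cells before injection. Xist and the Y-linked Eif2s3y differed between the fractions, as given further on. Strain, clone, culture, sex chromosomes and genotype thus cannot be told apart. Nothing states that libraries of a genotype came from separate litters, so p-values measure the spread between libraries only. The TET enzymes oxidise 5-methylcytosine and thereby open a path to DNA demethylation, and the question put to the gated cells was how their number and their expression differed between the genotypes.

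The second heart field is a population of progenitors behind and above the forming heart tube that adds cells to both poles of the heart while the tube elongates. Isl1, a LIM-homeodomain factor, marks these progenitors, and the T-box factor Tbx1 and the signal Fgf10 are known for their roles in its anterior part and in the mesoderm of the pharyngeal arches, which also forms head muscle. Tcf21, a bHLH factor, is known from pharyngeal muscle precursors and from the mesothelial lineage that covers the heart and other organs. At E8.5 Isl1 is also found in posterior lateral mesoderm, in endoderm and in some neurons, for which reason markers of other cells were examined beside the gated cells.

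As the genotypes differ in enzymes that act on methylated CpG dinucleotides, the 250 bases upstream of the start of 3 of the gate genes are shown, with each CpG in capitals. They were taken from RefSeq on GRCm38.p6 and are written 5′ to 3′ on the strand of the gene, which is the minus strand for all of them. DNA methylation was not measured in these libraries. The 4 marker genes of the gate all had an entry, but the start given for Fgf10 lies far from the start of the gene used for counting, and its sequence is not shown.
Isl1, chr13:116309689-116309938: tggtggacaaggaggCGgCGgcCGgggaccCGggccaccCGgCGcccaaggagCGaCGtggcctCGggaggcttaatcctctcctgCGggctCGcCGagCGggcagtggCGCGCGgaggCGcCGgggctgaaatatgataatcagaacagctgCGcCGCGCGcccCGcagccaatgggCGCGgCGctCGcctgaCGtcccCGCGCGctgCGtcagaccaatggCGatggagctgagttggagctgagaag
Tbx1, chr16:18590672-18590921: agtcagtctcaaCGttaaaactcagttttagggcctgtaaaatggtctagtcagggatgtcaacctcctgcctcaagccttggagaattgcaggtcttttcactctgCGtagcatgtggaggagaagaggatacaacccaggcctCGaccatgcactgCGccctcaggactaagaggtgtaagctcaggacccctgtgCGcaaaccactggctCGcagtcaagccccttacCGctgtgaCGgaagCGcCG
Tcf21, chr10:22820144-22820393: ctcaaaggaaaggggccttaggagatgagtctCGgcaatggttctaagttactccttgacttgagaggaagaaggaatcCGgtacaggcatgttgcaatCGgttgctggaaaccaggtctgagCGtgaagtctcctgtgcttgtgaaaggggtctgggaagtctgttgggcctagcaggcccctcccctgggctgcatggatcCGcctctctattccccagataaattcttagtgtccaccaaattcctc
The window of Isl1 holds 33 CpGs, and 4.03% of the 32851 windows of this length in the table hold as many. The Tbx1 window holds 10 CpGs, a number reached by 37.8% of the windows, and that of Tcf21 holds 5, reached by 55.6%. Of all windows 92.1% have a CpG, with a median of 6.

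The genes that chose the cells are given as a description. Isl1 (ENSMUSG00000042258, chr13:116298281-116309689 on mm10) stood in gated cells at 103, 119, 82.8 and 67.5 CPM in the Tet-TKO and 119 and 129 CPM in the WT host libraries, where CPM stands for the UMIs of a gene per 1000000 UMIs summed over the gated cells of a library. Tbx1 (ENSMUSG00000009097, chr16:18580979-18590671) was at 35.7, 46.1, 19.2 and 12.6 CPM in the Tet-TKO and 66.00 and 81.1 CPM in the WT host libraries. Tcf21 (ENSMUSG00000045680, chr10:22817281-22820174) was at 33.1, 39.03, 29.6 and 27.4 CPM in the Tet-TKO and 47.2 and 48.7 CPM in the WT host libraries. All of these were highest in WT host library 2 and lowest in Tet-TKO library 4, the library with the most UMIs per cell. Fgf10 (ENSMUSG00000021732, chr13:118669791-118792115) was at 24.1, 30.04, 16.3 and 17.2 CPM in the Tet-TKO and 20.7 and 26.5 CPM in the WT host libraries, with overlapping groups. A single Isl1 UMI admitted 919 of the gated cells, or 43.6%, so the gate ran close to its limit for many of its cells. Transcripts of 0 of the 7 heart muscle genes were found in 1012 gated cells, while 53 cells had 4 of them and were just inside, and 55 cells with 5 were just outside. Of supporting genes that the gate did not use, the level in gated cells over that in all other kept cells was 2.87 for Foxc2, 2.68 for Osr1, 2.25 for Hand2, 1.28 for Mef2c, 0.967 for Nkx2-5 and 0.684 for Lhx2, and Msc, a head muscle factor, was at or below 1.39 CPM in all libraries.

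Depth differed between the libraries and moved with the gate. The median number of UMIs per gated cell was 21392, 13831.5, 43704.5 and 80805 for Tet-TKO and 17342 and 14574 for WT host, so Tet-TKO libraries 3 and 4 were read more deeply per cell than all others. Pairs of libraries shared at most 26 barcodes. In the summed counts of gated cells, Tet-TKO libraries 1 and 2 differed by a chi-square of 1.88 per degree of freedom over genes and libraries 3 and 4 by 5.21, against 19.6 to 33.9 across these pairs and 2.40 between the WT host libraries. Against WT host, Tet-TKO libraries 1 and 2 were at 10.9 to 19.3 and libraries 3 and 4 at 24.3 to 30.6. This measure also grows with the UMIs summed, which were 4231926 to 15143692 per library. The labels do not say whether libraries 1 and 2, or 3 and 4, came from 1 pool of embryos, so the 4 may hold fewer than 4 independent samples. In neural-gate cells, which had Sox2 with Pax6 or Otx2 and should lack the gate genes, Isl1 was detected in 8.79%, 4.28%, 13.6% and 6.47% of cells of Tet-TKO and in 4.74% and 2.11% of WT host. Fgf10 was found in 16.4% and 23.0% of the neural-gate cells of Tet-TKO libraries 3 and 4 and in 2.20% to 4.46% of those of the others, whereas Tcf21 stayed between 0.395% and 3.60%. These values describe how often the gate genes were detected in such cells, and no cutoff was drawn from them. A doublet score marked 135 of the gated cells, or 6.41%. tdTomato was detected in 71.1% to 94.3% of gated cells of the Tet-TKO libraries and in 0.645% and 1.87% of those of WT host. UMIs of the deleted genes themselves were present in both genotypes. Tet1 stood at 10.2, 11.1, 17.4 and 21.6 CPM in Tet-TKO and 24.3 and 29.5 CPM in WT host, Tet2 at 6.71, 8.03, 12.7 and 12.9 CPM in Tet-TKO and 5.38 and 6.14 CPM in WT host and Tet3 at 25.2, 23.3, 38.4 and 37.2 CPM in Tet-TKO and 32.5 and 29.3 CPM in WT host. None was called different, although Tet1 was called lower without Tet-TKO libraries 3 and 4 (log2 fold change -1.28). Where the deletions lie within the genes was not given in the sources used here, so a 3′ tag does not check the genotype.

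With the gate as set and all UMIs used, the share of gated cells was higher in every Tet-TKO library than in both WT host libraries. The gap became small once cells were compared at 1 depth. Gated cells made up 8.88% (95% exact binomial interval 8.22% to 9.57%), 4.38% (3.98% to 4.81%), 14.3% (12.9% to 15.8%) and 15.7% (13.5% to 18.1%) of the kept Tet-TKO cells, given by library. In WT host they made up 3.75% (3.35% to 4.19%) and 2.95% (2.61% to 3.32%), intervals that cover counting error only. The means were 10.8% ± 5.19 (SD, n = 4) and 3.35% ± 0.566 (SD, n = 2), with a two-sided exact permutation p of 0.133, the smallest that 4 against 2 libraries allow. The highest shares were those of the deeply read libraries 3 and 4, and without them the mean of Tet-TKO was 6.63%. When at least 2 Isl1 UMIs were asked for, Tet-TKO library 2 (1.90%) lay below WT host library 1 (2.14%). The means were then 7.28% in Tet-TKO and 1.80% in WT host (exact permutation p = 0.267). With libraries 1 and 2 summed, and 3 and 4 summed, the difference was 7.14 percentage points (exact permutation p = 0.333, the smallest that 2 against 2 allow). Cells with at least 10% of their UMIs in Hba-x, Hbb-bh1 and Hbb-y, the erythroid gate, numbered 0, 11, 8 and 4 in Tet-TKO and 454 and 1699 in WT host. With these left out of the total the means were 10.8% and 3.81%, a difference of 7.02 points. Thinned shares were not computed without them.

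After each cell was thinned to 5000 UMIs, the gate was met by 1.94%, 1.25%, 1.48% and 1.52% of cells in Tet-TKO and by 1.31% and 1.19% in WT host. Tet-TKO library 2 then lay between the WT host libraries and the other 3 lay above both, with means of 1.55% ± 0.286 (SD, n = 4) and 1.25% ± 0.085 (SD, n = 2) and an exact permutation p of 0.267. The thinned gate held 14 to 131 cells per Tet-TKO library and 101 and 99 per WT host library. Genotype fits on thinned counts, given below, used these cells alone, so they differ from the main fit in cells as well as in depth. Fits of cells gated on thinned counts summed all UMIs of the same cells. For cells with Tbx1 the order of the means turned with depth: with all UMIs the means were 2.86% in Tet-TKO against 1.55% in WT host, and after thinning 0.561% against 0.674%. Tet-TKO library 2, at 1.54% with all UMIs, lay between the WT host libraries, at 1.62% and 1.48%. With 4 against 2 libraries this test could not reach a p of 0.05 at either depth, so the shares are given as values.

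**Figure D1:**
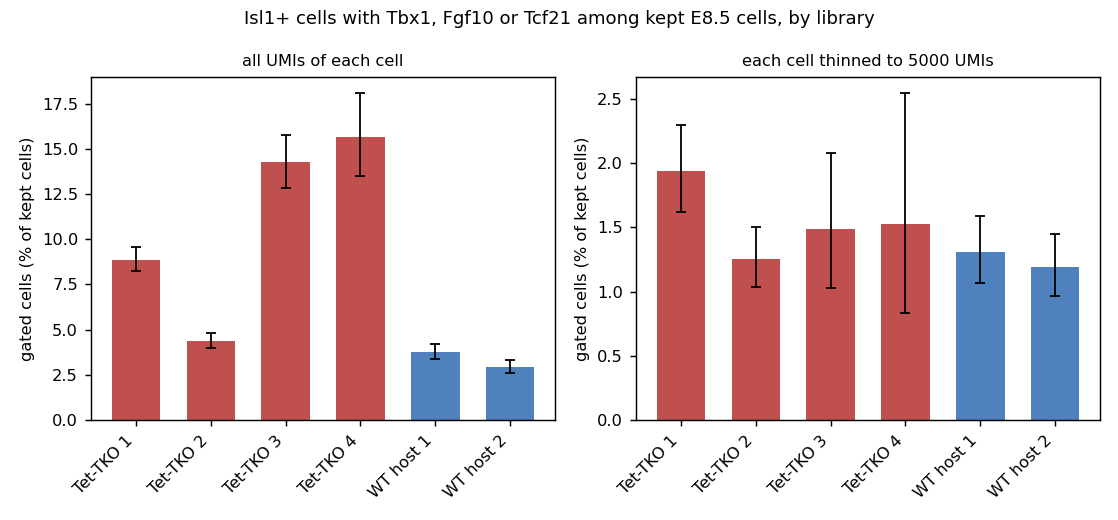
Gated cells as a percentage of kept cells in each of the 6 E8.5 libraries, with all UMIs of each cell (left) and after thinning each cell to 5000 UMIs (right); red bars are Tet-TKO, blue bars WT host, and error bars are 95% exact binomial intervals. With all UMIs the 4 Tet-TKO bars, from 4.38% to 15.7%, stand above both WT host bars, and after thinning all bars lie between 1.19% and 1.94%.

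The gated cells fell mostly into cells with Tbx1 or cells with Tcf21 detected. Tbx1 without Tcf21 was found in 462 gated cells (21.9%), Tcf21 without Tbx1 in 1007 (47.8%), both in 250 (11.9%) and Fgf10 alone in 387 (18.4%). Tbx1 was 1 of the genes that admitted the cells, so its share among them is a description. It was detected in 28.0%, 35.2%, 25.6% and 24.1% of the gated cells of Tet-TKO and in 43.2% and 50.2% of those of WT host, and no Tet-TKO library reached the WT host range. Tcf21 was detected in 57.6%, 50%, 72.9% and 75.3% of them in Tet-TKO against 60% and 53.9% in WT host, with the highest shares in the deeply read libraries 3 and 4. After thinning, the share with Tcf21 was 43.5%, 36.3%, 42.4% and 42.9% in Tet-TKO against 48.5% and 50.5% in WT host. Every Tet-TKO library then lay below both WT host libraries, though libraries 3 and 4 had only 33 and 14 thinned gated cells. Tcf21 without Tbx1, the Tcf21 arm, overlapped between the genotypes after thinning. It was found in 52 of 131, 36 of 113, 13 of 33 and 4 of 14 cells in Tet-TKO. In WT host it was found in 37 of 101 and 34 of 99. A whole-gate difference between the genotypes can hold a difference in the share of cells with Tbx1 or Tcf21. For several genes the values within an arm are therefore given beside it.

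Between the arms, with library as a block, 573 of 10437 tested genes (5.49%) differed at an adjusted p under 0.01 and a log2 fold change of at least 1 by the quasi-likelihood test of edgeR, 260 of them (2.49%) higher in Tbx1 cells and 313 (3%) higher in Tcf21 cells. The arms were set by UMIs of 2 genes in the same cells, so the calls name genes detected together with each of them. Values in parentheses after a gene name are log2 fold changes of Tbx1 over Tcf21 cells in what follows on the arms. When the libraries of a genotype were fitted alone, 478 genes were called in Tet-TKO and 424 in WT host. On thinned counts Tet-TKO library 4 had 2 Tbx1 and 4 Tcf21 cells and was left out, and Tet-TKO library 3 had 11 and 13. The fit on thinned counts called 117 of 3950 tested genes. There Fst was at 2.41, Tcf15 at 3.22, Hand1 at -4.81, Hoxb6 at -4.22, Pitx1 at -5.75 and Tbx4 at -5.16. Ebf1 was at 1.83, Tnni1 at 1.82, Prdm1 at 3.11, Bmp4 at -2.61, Cdx2 at -3.37, Hoxa10 at -4.18 and Msx1 at -3.58, and Meox1 was 4.01-fold higher in Tbx1 cells. All of these were called and lay over 1.5 times from the fold given below, while many lower genes could not be tested.

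Factors of pharyngeal and head mesoderm were higher in Tbx1 cells wherever they were called. Of 16 tested members of this list 8 were higher in Tbx1 cells and 0 were lower, with a median log2 fold change of 1.56 against 0.00 over all genes. The transcriptional cofactors Eya1 and Eya2 differed by 2.27 and 2.25 on the log2 scale, the homeobox factor Six2 by 2.60, and the early B-cell factors Ebf1, Ebf2 and Ebf3, which are known from head muscle and mesenchyme, by 2.69, 2.80 and 2.46. Foxp2, a forkhead factor, differed by 1.92.

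The heart and second heart field factors divided between the arms, with 6 higher in Tbx1 cells and 7 higher in Tcf21 cells of 21 tested. Foxc2, a forkhead factor of arch and outflow tract mesoderm, was at 76.9, 67.1, 73.2 and 47.4 CPM in Tbx1 cells of Tet-TKO and 84.5 and 87.4 CPM in those of WT host, and in Tcf21 cells at 6.097, 7.01, 5.43 and 7.65 CPM in Tet-TKO against 7.08 and 17.8 CPM in WT host. That is a log2 fold change of 3.26 (SE 0.17, adjusted p = 9.26e-10), with the same order in all 6 libraries. Foxc1 (2.36), Nkx2-5 (1.79), Mef2c (1.62), Hopx (2.49) and Prdm1 (2.27) were also higher with Tbx1. Hand1, a bHLH factor of lateral and extraembryonic mesoderm and of the left ventricle, was instead at 78.5, 40.2, 10.8 and 19.97 CPM in Tet-TKO against 35.4 and 22.7 CPM in WT host in Tbx1 cells. In Tcf21 cells it was at 255, 226, 160.5 and 148 CPM in Tet-TKO against 325 and 247 CPM in WT host. Tbx1 over Tcf21 cells gave a log2 fold change of -2.59 (SE 0.17, adjusted p = 1.66e-08). Hand2 (-1.20), Gata5 (-1.36), Tbx2 (-1.42), Tbx3 (-2.11), Tbx20 (-2.33) and Foxf1 (-1.30) went with it. On counts thinned to 5000 UMIs per cell, Nkx2-5 (0.77, edgeR adjusted p = 0.460), Foxc1 (1.00, adjusted p = 0.154), Hand2 (-0.79, adjusted p = 0.113) and Tbx2 (-1.86, adjusted p = 0.0274) were not called.

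Genes of position along the body axis also differed between the arms. In the Hox and axial list 9 of 20 tested genes were higher in Tcf21 cells, among them Hoxb4, Hoxb5, Hoxb6, Hoxc4, Cdx1 and Cdx2, and the Hox cofactor Meis1 alone was higher in Tbx1 cells. Hoxb6 was at 12.8, 12.8, 3.08 and 8.32 CPM in Tet-TKO against 9.38 and 7.28 CPM in WT host in Tbx1 cells. In Tcf21 cells it was at 73.3, 52.9, 41.2 and 47.2 CPM in Tet-TKO against 96.3 and 69.1 CPM in WT host. Tbx1 over Tcf21 cells gave a log2 fold change of -2.72 (SE 0.16, adjusted p = 3.00e-09). Cdx2, a caudal homeobox factor, differed by -2.24. Meis1 was not called on thinned counts (1.18, edgeR adjusted p = 0.0134).

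Genes of the hindlimb and allantois were high in the Tcf21 arm, as a list of allantois and extraembryonic mesenchyme markers showed. Of its 9 genes 8 were higher in Tcf21 cells and 0 in Tbx1 cells, with a median of -2.88. Pitx1 (chr13:55825051-55836192), a homeobox factor of hindlimb mesoderm, was at 32.1, 29.2, 0.771 and 17.5 CPM in Tet-TKO against 29.6 and 22.7 CPM in WT host in Tbx1 cells. In Tcf21 cells it was at 233, 249, 204 and 186 CPM in Tet-TKO against 278 and 295 CPM in WT host. Tbx1 over Tcf21 cells gave a log2 fold change of -3.35 (SE 0.17, adjusted p = 1.15e-09). Tbx4 (chr11:85886422-85916097), a T-box factor needed in allantois and hindlimb, was at 15.5, 13.4, 0 and 0 CPM in Tet-TKO against 13.7 and 9.71 CPM in WT host for Tbx1 cells and 101, 88.3, 71.3 and 63.9 CPM in Tet-TKO against 147 and 108 CPM in WT host for Tcf21 cells. In each library both genes were several times higher in the Tcf21 cells. Hoxa10 and Hoxa11 differed by -3.12 and -3.33. The summed level of the list was 127 to 230 CPM in the Tbx1 cells of all libraries and 999 to 1204 CPM in the Tcf21 cells. The number of gated cells that carried these transcripts was not counted. Factors of the label were found in both arms and in other populations. The second heart field and heart list, which has none of the gate genes, summed to 689 to 843 CPM in Tbx1 cells, 1033 to 1146 CPM in Tcf21 cells and 443 to 694 CPM in other kept cells, and the pharyngeal list to 844 to 1227, 662 to 818 and 242 to 464 CPM in the same order. In Foxf1-gate cells and cardiomyocyte-gate cells, which are defined further on, the first list summed to 994 to 1363 CPM and 1873 to 2174 CPM and the pharyngeal list to 495 to 628 CPM and 488 to 616 CPM. The first list holds Foxf1, which chose the Foxf1-gate cells, so its sum in them is in part set by that choice. As the larger Tcf21 arm also carried the genes of the allantois list, the cells are called gated cells here, and the arms are called by their genes.

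Markers of somite and presomitic mesoderm went the other way. All 3 tested members were higher in Tbx1 cells, with a summed level of the list of 99.6 to 186 CPM there and of 12.9 to 41.2 CPM in Tcf21 cells. Tcf15 (chr2:152143561-152149097), a bHLH factor of paraxial mesoderm, was at 68.03, 72.9, 83.3 and 96.5 CPM in Tet-TKO against 45.5 and 55.8 CPM in WT host in Tbx1 cells. In Tcf21 cells it was at 4.71, 3.15, 2.38 and 0.637 CPM in Tet-TKO against 3.15 and 6.97 CPM in WT host. Tbx1 over Tcf21 cells gave a log2 fold change of 4.66 (SE 0.28, adjusted p = 4.93e-09). The other members were Meox1 (2.91) and Pax3 (2.07).

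Among the signals, Fgf8 and Nodal were higher in the Tbx1 arm, and Fgf15, Bmp2 and Bmp4 in the Tcf21 arm. Fgf8, the FGF that supports growth of the second heart field, was at 131, 106, 50.9 and 101 CPM in Tet-TKO against 254 and 134 CPM in WT host in Tbx1 cells. In Tcf21 cells it was at 27.99, 27.7, 15.6 and 12.6 CPM in Tet-TKO against 20.1 and 27.3 CPM in WT host. Tbx1 over Tcf21 cells gave a log2 fold change of 2.50 (SE 0.18, adjusted p = 2.85e-08). It was the 1 gene higher in Tbx1 cells of 18 tested in the FGF list, while Fgf15 (-1.92) and the receptor Fgfr2 (-1.30) were lower. Of 19 genes of the BMP and TGF-beta list, Nodal (2.34) and its inhibitor Lefty2 (3.41) were higher in Tbx1 cells and 6 were higher in Tcf21 cells, which included the ligands Bmp4 (-1.75) and Bmp2 (-1.88) but not Bmp5 (0.34) or Bmp7 (-0.03), and the BMP-responsive factors Msx1 (-2.23) and Msx2 (-2.11). Fst, the secreted activin antagonist follistatin, named by its size of change, differed by 3.99.

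In the retinoic acid list 3 of 12 genes were higher in Tbx1 cells, namely the degrading enzyme Cyp26a1 (2.03), the receptor Rarb (2.03) and the retinol transporter Stra6 (1.63), and the receptor Rarg (-1.65) was higher in Tcf21 cells. The Wnt list gave 8 calls of 20, 3 higher and 5 lower in Tbx1 cells, and the extracellular matrix list 7 of 22, 3 higher and 4 lower. Contractile genes outside the gate were called in 4 of 10 cases. Myocd (1.82), Myh7 (2.99) and Tnni1 (1.04) were higher in Tbx1 cells, and the smooth muscle actin Acta2 (-2.26) in Tcf21 cells. On thinned counts Acta2 (-0.63, edgeR adjusted p = 0.407) and Cyp26a1 (0.91, adjusted p = 0.259) were not called.

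No gene was called between the arms in the Hedgehog, Notch, DNA methylation, S phase and G2 and M phase lists, with 55 genes tested by edgeR, 33 of them at an unadjusted p under 0.05 and 0 called by DESeq2. That p was met by 3614 of all 10437 genes (34.6%), a smaller share than in these lists. Of the 16 genes that differed most in either direction, those higher in Tbx1 cells included Halr1 (5.59), Tcf15, Cav1 (4.43), Clu (4.37), Tmigd3, Gm12829 and Fst. Higher in Tcf21 cells were Hoxc10 (-3.52), Nkx1-2 (-3.51), Hoxa11os, Pitx1, Hoxa11, Tbx4, Hoxd8 and Pde9a.

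**Figure D2:**
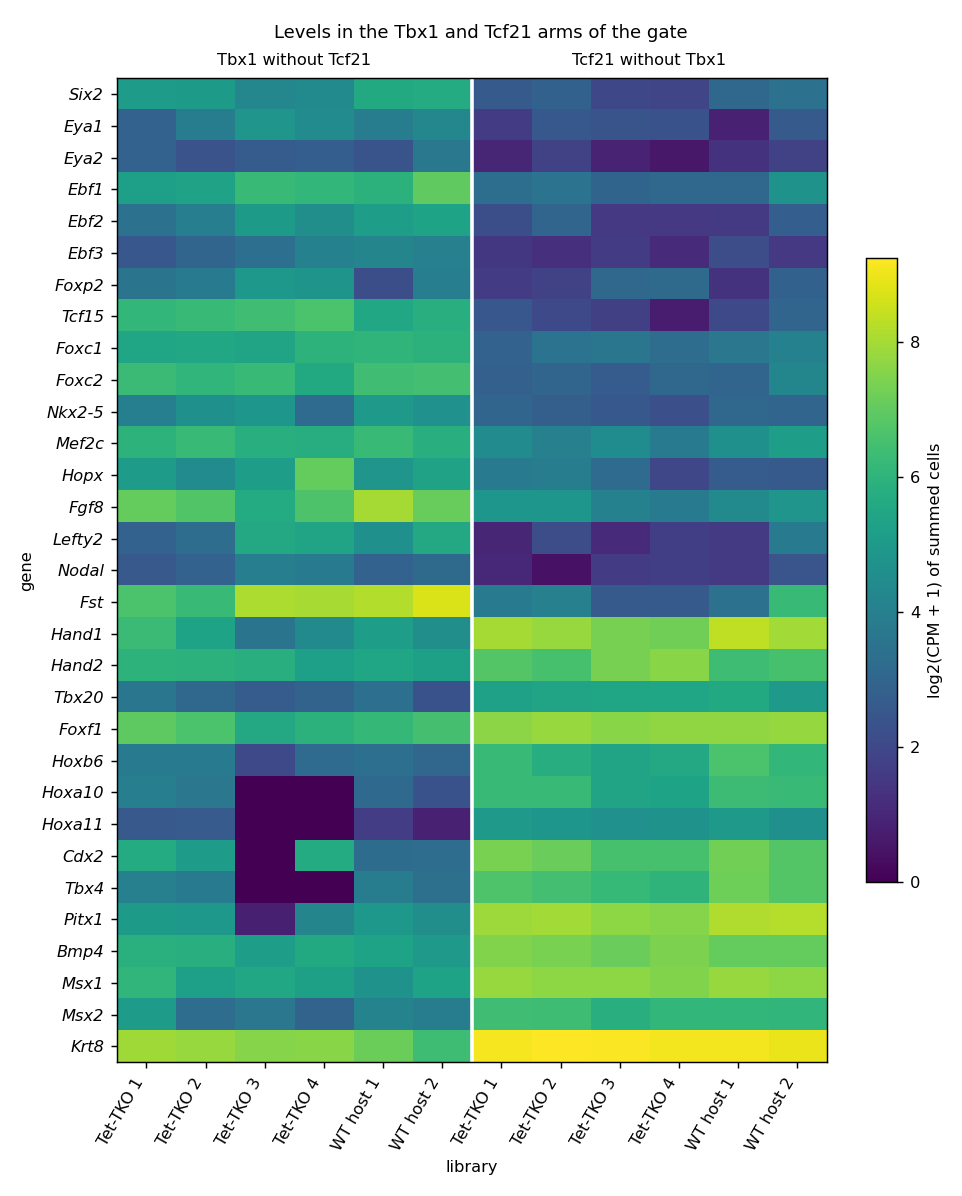
Levels of 31 genes as log2(CPM + 1) of summed cells, with the 6 libraries of the Tbx1 cells without Tcf21 on the left and the same libraries of the Tcf21 cells without Tbx1 on the right. Tcf15, Foxc2 and Fgf8 are brighter on the left in every library, and Hand1, Hoxb6, Tbx4 and Pitx1 are brighter on the right in every library.

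Markers of other cell types were present to unequal extents. Erythroid markers, described further on, had the largest of these sums in WT host. The endoderm list summed to 762 to 872 CPM in gated cells of Tet-TKO and 531 to 670 CPM in those of WT host, but most of it was Krt8 and Krt18, keratins that simple epithelia and some mesoderm share. Of its 10 genes 5 stayed below 5 CPM in every library, among them Foxa1, Foxa2 and Cdh1, and Nkx2-1 was at 0 throughout. Krt8 (-1.61), Krt18 (-1.02, and -0.76 with no call on thinned counts) and Apela were higher in Tcf21 cells, and the 2 tested genes of the ectoderm list, Krt19 and Wnt6, were too. Neural markers summed to 18.6 to 41.6 CPM in gated cells and to 93.5 to 181 CPM in other kept cells, with Otx2 higher in Tbx1 cells. In neural-gate cells the sum was 525 to 756 CPM, but the list holds Sox2, Pax6 and Otx2, which chose those cells. Neural crest markers summed to 13.4 to 51.9 CPM, and of 3 tested Ets1 and Zic1 were called between the arms in opposite directions. For endothelium, neither of the 2 tested genes was called, and the list summed to 107 to 157 CPM, against 102 to 178 CPM in other kept cells. Kdr, a receptor also made by early cardiac mesoderm, was at 65.6, 68.1, 66.96 and 59.2 CPM in Tet-TKO against 79.9 and 69.5 CPM in WT host, while Cdh5 and Pecam1 stayed below 5 CPM.

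Between the genotypes, a small part of the tested genes was called in gated cells, and Lefty2 and Fst and, among Tbx1-bearing cells, Ebf2 were called lower in Tet-TKO. The number called varied with the libraries and the method. Of 13252 tested genes 78 (0.589%) were called, of which 28 (0.211%) were higher and 50 (0.377%) lower in Tet-TKO gated cells by edgeR. In Tbx1-bearing gated cells, taken with or without Tcf21, 60 of 10371 genes (0.579%) were called, of which 21 (0.202%) were higher and 39 (0.376%) lower, and in Tcf21 cells without Tbx1 36 of 11634 (0.309%) were, 18 (0.155%) higher and 18 (0.155%) lower. The 14 lists of regulators, signals, matrix, muscle, methylation and cell cycle genes gave 1 call in 228 tested genes (0.439%) in the whole gate, 2 in 209 (0.957%) in the Tbx1-bearing cells and 0 in 218 in the Tcf21 cells. By unadjusted p under 0.05 the numbers were 60 (26.3%), 54 (25.8%) and 45 (20.6%), against 13.4%, 10.8% and 11.2% of all genes tested. DESeq2 called 6 in the whole gate (2.63%, against 1.30% of all genes), among them Ebf1, Ebf2, Hoxa5, Lefty2 and Ptch1. With 2 WT host libraries the calls rested on both: 10 genes were called in the whole gate without library 1 and 6 without library 2, where the spread of the lone library is taken to be like that of Tet-TKO. Without Tet-TKO libraries 3 and 4, 12 of 219 tested list genes (5.48%) were called, against 2.08% of all genes.

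Lefty2 (ENSMUSG00000066652, chr1:180893108-180899103), which encodes a secreted inhibitor of Nodal, was the regulator called in the whole gate. It stood at 2.499, 4.34, 5.61 and 5.57 CPM in Tet-TKO and 17.2 and 28.4 CPM in WT host. Every Tet-TKO library lay below both WT host libraries. The log2 fold change of -2.35 (SE 0.30, adjusted p = 0.00849) corresponded to a 5.08-fold lower level in Tet-TKO. In Tbx1-bearing cells, where it was higher in each library, the values were 6.57, 7.66, 20.9 and 17.2 CPM in Tet-TKO and 31.2 and 39.8 CPM in WT host, with the same order but no call (log2 fold change -1.43, adjusted p = 0.120). The whole-gate call was lost without Tet-TKO library 2 (-2.35), 3 (-2.46) or 4 (-2.45) and without WT host library 1 (-2.65) or 2 (-1.97). It was also lost when each cell was thinned to 5000 UMIs and gated again (-1.72, edgeR adjusted p = 0.339). With all UMIs of these re-gated cells summed, it was lost too (-2.94, edgeR adjusted p = 0.0758).

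Fst (ENSMUSG00000021765, chr13:114452290-114458951), whose product binds activin and other ligands of the TGF-beta family, was lower both in the whole gate and within the Tbx1 cells. Gated cells held 41.7, 41.1, 42.5 and 34.2 CPM in the Tet-TKO and 122 and 209 CPM in the WT host libraries, a log2 fold change of -2.05 (SE 0.20, adjusted p = 0.00314). The Tet-TKO values lay close together and well below both WT host values. In Tbx1-bearing cells Fst was at 112, 79.03, 132 and 117 CPM in Tet-TKO and 273 and 379 CPM in WT host, again without overlap (log2 fold change -1.57, SE 0.18, adjusted p = 0.00134). Tcf21 cells had 12.7, 15.4, 5.09 and 5.099 CPM in Tet-TKO against 9.83 and 75.5 CPM in WT host and gave no call (log2 fold change -2.16, adjusted p = 0.303). The Fst difference in the gate was not called without WT host library 2 (-1.63), which held the most. On thinned counts Fst was called (-1.71), and in cells gated on thinned counts it was not (-1.75, edgeR adjusted p = 0.208).

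The pharyngeal and head mesoderm factors gave 0 calls in the whole gate by edgeR and 3 by DESeq2, and 2 in the Tbx1-bearing cells by edgeR. Of 17 tested genes in the whole gate 11 had an unadjusted p under 0.05, 5 had a log2 fold change above 0 and the median was -0.80, against 0.02 over all genes. Within the Tbx1-bearing cells the median over 15 tested genes was -0.16 and 2 genes were called. These cells also differed in makeup, since 49, 24, 53 and 22 of them had Tcf21 too in the Tet-TKO libraries and 54 and 48 in WT host, beside 126, 123, 31 and 16 and 80 and 86 without it. The part of this makeup in the values was not tested.

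Ebf2 (ENSMUSG00000022053, chr14:67233292-67430918) was among those called in Tbx1-bearing cells, at 15.6, 13.4, 21.1 and 19.2 CPM in the Tet-TKO and 44.9 and 42.3 CPM in the WT host libraries, with a log2 fold change of -1.33 (SE 0.18, adjusted p = 0.00602). All Tet-TKO values were less than those of WT host. The whole gate had 6.21, 9.799, 6.802 and 5.64 CPM in Tet-TKO against 19.5 and 22.2 CPM in WT host (log2 fold change -1.58, adjusted p = 0.0209). In Tbx1-bearing cells Ebf1 had 37.8, 39.3, 65.4 and 72.4 CPM in Tet-TKO against 70.5 and 124 CPM in WT host, a range in which Tet-TKO library 4 exceeded WT host library 1. Eya1 in these cells, at 11.5, 13.9, 24.00 and 21.2 CPM in Tet-TKO against 17.1 and 19.6 CPM in WT host, overlapped between the genotypes (log2 fold change -0.06, adjusted p = 0.963). Without Tet-TKO libraries 3 and 4 the whole-gate fit called Ebf1 (-1.45), Ebf2 (-1.40) and Ebf3 (-1.35). On thinned counts it called neither Ebf2 (-0.996, adjusted p = 0.896) nor Ebf1 (-1.07, adjusted p = 0.192), and in cells gated on thinned counts Ebf2 was at -0.79 (adjusted p = 0.451).

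Tlx1 and Nrg1 were looked at after their values had been seen. Tlx1 (chr19:45150680-45156943), a homeobox factor known from pharyngeal arches and spleen, was at 2.19, 1.92, 4.29 and 5.05 CPM in the Tet-TKO and 20.1 and 27.2 CPM in the WT host libraries in Tbx1-bearing cells, a log2 fold change of -2.78 (SE 0.34, adjusted p = 0.00243). All Tet-TKO libraries were at or below 5.05 CPM. In the whole gate Tlx1 was not called (log2 fold change -2.43, adjusted p = 0.0123), nor was it on thinned counts (-2.56, adjusted p = 0.251), and the fit of Tbx1-bearing cells was not repeated without single libraries. Nrg1 (chr8:31814551-32884029), the ligand neuregulin of ERBB receptors, was at 9.35, 12.4, 10.8 and 9.02 CPM in the Tet-TKO and 25.01 and 28.6 CPM in the WT host libraries in the whole gate, a log2 fold change of -1.39 (SE 0.18, adjusted p = 0.00888), and was not called in Tbx1-bearing cells (log2 fold change -1.08, adjusted p = 0.0143). The whole-gate call of Nrg1 was lost without any 1 of the libraries other than Tet-TKO library 2, with values of -1.46 to -1.30, and Nrg1 was not called on thinned counts (-0.88) or in cells gated on them (-0.31).

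Second heart field and heart factors gave no call between the genotypes. Of 21 tested genes 0 were called by edgeR and 0 by DESeq2, 7 had an unadjusted p under 0.05, and the median was -0.08. Hand2, needed for outflow and arch mesoderm, was at 93.7, 82.6, 127 and 149 CPM in the Tet-TKO and 65.1 and 60.97 CPM in the WT host libraries (log2 fold change 0.82, adjusted p = 0.117). Its values in Tet-TKO were all above those in WT host, and libraries 3 and 4 were highest. Within the arms its log2 fold change was 0.85 in Tbx1-bearing and 0.65 in Tcf21 cells, with no call. Nkx2-5, the early cardiac homeobox factor, was at 9.07, 13.3, 8.25 and 6.98 CPM in Tet-TKO against 19.5 and 15.8 CPM in WT host (log2 fold change -0.94, adjusted p = 0.202), and Foxc1 at 18.1, 22.6, 21.99 and 22.5 CPM in Tet-TKO against 33.3 and 37.6 CPM in WT host (log2 fold change -0.75, adjusted p = 0.0439). In Tbx1-bearing and Tcf21 cells the log2 fold changes were -0.66 and -0.45 for Nkx2-5 and -0.41 and -0.59 for Foxc1, none of them called. In Tbx1-bearing cells Gata4, a zinc finger factor of early heart mesoderm, was at 15.3, 14.8, 25.7 and 21.2 CPM in Tet-TKO and 6.84 and 3.02 CPM in WT host (log2 fold change 1.92, adjusted p = 0.0325). These groups did not overlap either, but the adjusted p stayed above 0.01.

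Other signalling lists gave no call beyond Lefty2 in the whole gate by edgeR. In the FGF list, with 21 genes tested and 5 at an unadjusted p under 0.05, Fgf8 was at 71.2, 69.2, 39.4 and 42.1 CPM in the Tet-TKO and 102 and 92.2 CPM in the WT host libraries (log2 fold change -0.81, adjusted p = 0.285). Dusp6, a phosphatase induced by FGF signalling, was at 28.1, 28.4, 28.3 and 25.6 CPM in Tet-TKO against 46.9 and 62.9 CPM in WT host (log2 fold change -0.99, adjusted p = 0.0190), with both WT host values above all of Tet-TKO. In the same order of arms Fgf8 gave -0.90 and -0.18 and Dusp6 -0.99 and -0.86 on the log2 scale, again with no call. Of the BMP and TGF-beta list, with 20 tested and 6 at that p, Tgfb2 was at 86.5, 88.2, 86.2 and 94.1 CPM in Tet-TKO against 55.9 and 54.1 CPM in WT host (log2 fold change 0.68, adjusted p = 0.0263), higher in each Tet-TKO library, and its log2 fold change was 1.00 in Tbx1-bearing and 0.61 in Tcf21 cells, neither called. On thinned counts it was at 1.39 in the whole gate, again without a call (adjusted p = 0.0247). Medians were 0.23 for Hox and axial genes, 0.22 for the retinoic acid list, -0.07 for Wnt, 0.11 for matrix and migration, 0.02 for S phase and -0.02 for G2 and M phase genes, against 0.02 over all genes. In the Hedgehog, Notch, DNA methylation and cell cycle lists together 0 of 60 tested genes were called by edgeR, with 6 at an unadjusted p under 0.05, and DESeq2 called Ptch1 alone.

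**Figure D3:**
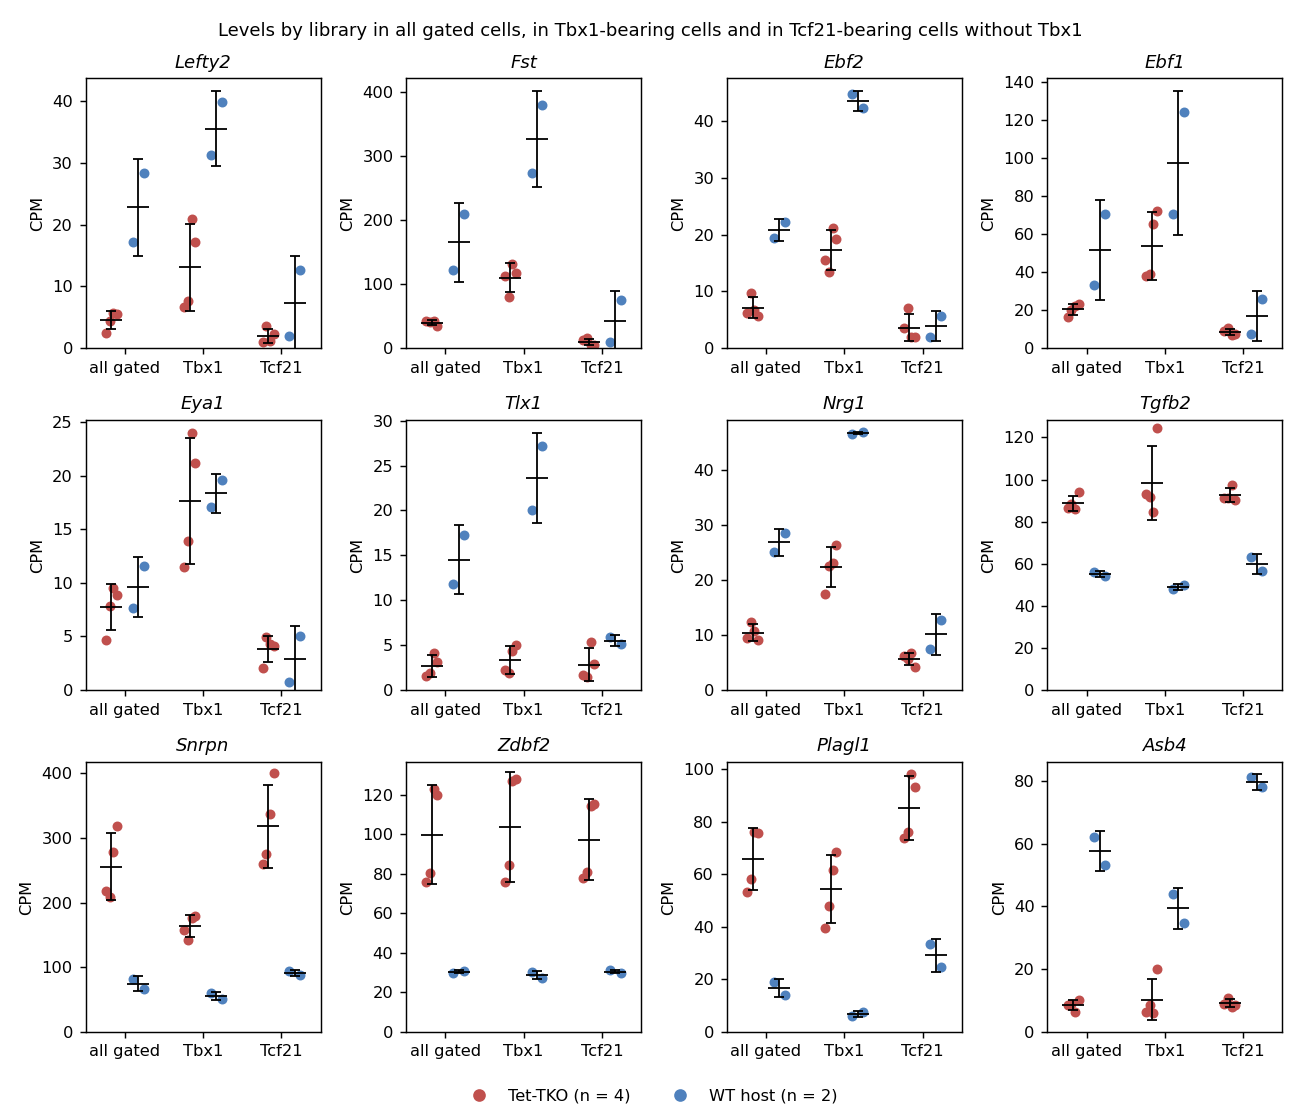
Levels of 12 genes in CPM of summed cells for all gated cells, Tbx1-bearing gated cells and Tcf21 cells without Tbx1; each point is 1 library, red for Tet-TKO (n = 4) and blue for WT host (n = 2), and black marks give the mean and SD. In Tbx1-bearing cells the Tet-TKO points of Fst, Ebf2 and Tlx1 all lie below the WT host points, and those of Snrpn, Zdbf2 and Plagl1 lie above them in every population.

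Several called genes are imprinted, a group picked after the calls had been seen. The imprinted genes tested were not counted, so no share of them can be set beside the 0.589% called of all genes. Such genes are expressed from 1 parental allele under the control of DNA methylation laid down in the germ line. Zdbf2 (ENSMUSG00000027520, chr1:63273265-63314576), a paternally expressed zinc finger gene, was at 75.98, 80.3, 123 and 119.9 CPM in the Tet-TKO and 29.9 and 30.96 CPM in the WT host libraries, a log2 fold change of 1.69 (SE 0.20, adjusted p = 0.00553). Snrpn (chr7:59982495-60140219), a paternally expressed spliceosome gene, was at 218, 209, 279 and 318 CPM in the Tet-TKO and 82.3 and 65.9 CPM in the WT host libraries (log2 fold change 1.77, SE 0.18, adjusted p = 0.00332). Plagl1 (chr10:13060504-13131694), a zinc finger factor that regulates other imprinted genes, was at 53.3, 57.99, 76.01 and 75.7 CPM in the Tet-TKO and 19.1 and 14.2 CPM in the WT host libraries (log2 fold change 1.95, SE 0.19, adjusted p = 0.00272). All Tet-TKO values of these genes were above those of WT host. Ndn, a neighbour of Snrpn, was at 199.7, 206, 260.04 and 231 CPM in Tet-TKO against 86.8 and 107 CPM in WT host (log2 fold change 1.20, SE 0.13, adjusted p = 0.00361).

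Others of this group were lower in Tet-TKO. Asb4 (ENSMUSG00000042607, chr6:5383386-5433022), a maternally expressed gene of an ubiquitin ligase adaptor, was at 8.43, 8.996, 6.21 and 10.04 CPM in the Tet-TKO and 62.2 and 53.2 CPM in the WT host libraries, a log2 fold change of -2.80 (SE 0.20, adjusted p = 8.16e-04), and no Tet-TKO library came near WT host. It was called lower in Tcf21 cells (log2 fold change -3.18, SE 0.18, adjusted p = 8.75e-05) and not in Tbx1-bearing cells (log2 fold change -1.98, adjusted p = 0.0409). H13, a maternally expressed peptidase gene, was at 21.6, 22.5, 26.2 and 19.4 CPM in Tet-TKO against 55.8 and 57.9 CPM in WT host (log2 fold change -1.35, SE 0.14, adjusted p = 0.00345). Igf2 (log2 fold change 0.60, adjusted p = 0.362), H19 (log2 fold change -0.35, adjusted p = 0.532) and Peg3 (log2 fold change 0.88, adjusted p = 0.161) were not called. On thinned counts the imprinted genes Dlk1 (0.60), Meg3 (0.41), Rian (0.50), Grb10 (-0.595), Peg10 (0.01) and Mest (0.43) were not called.

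The order of the genotypes was the same in neural-gate cells of these libraries. There Zdbf2 was at 126, 137, 172 and 185 CPM in Tet-TKO against 43.1 and 54.1 CPM in WT host, and Snrpn at 234, 193, 224 and 278 CPM in Tet-TKO against 113 and 91.1 CPM in WT host. H13 was at 15.8, 18.1, 17.4 and 20.1 CPM in Tet-TKO against 52.8 and 50.01 CPM in WT host, and Asb4, much lower in this population, at 2.92, 2.75, 2.21 and 3.85 CPM in Tet-TKO against 9.86 and 10.9 CPM in WT host. In gated cells the call of Zdbf2 was lost without WT host library 1 (1.69) or 2 (1.70), and so were those of Snrpn (1.96 and 1.60), Ndn (1.07 and 1.34), Plagl1 (2.22 and 1.75), H13 (-1.36 and -1.34) and Asb4 (-2.65 and -2.92), with log2 fold changes that stayed close to those of all 6 libraries. On thinned counts Snrpn (1.52), Ndn (1.30), Plagl1 (2.94) and Asb4 (-2.70) were called, and Zdbf2 (1.33) and H13 (-1.21) were not. The parts of strain, of stem cell culture and of genotype in them cannot be told apart. The 250 bases before the start of Zdbf2 given by RefSeq, chr1:63273019-63273268 on the plus strand of GRCm38.p6, are shown as the example of this group, with each CpG in capitals.
Zdbf2: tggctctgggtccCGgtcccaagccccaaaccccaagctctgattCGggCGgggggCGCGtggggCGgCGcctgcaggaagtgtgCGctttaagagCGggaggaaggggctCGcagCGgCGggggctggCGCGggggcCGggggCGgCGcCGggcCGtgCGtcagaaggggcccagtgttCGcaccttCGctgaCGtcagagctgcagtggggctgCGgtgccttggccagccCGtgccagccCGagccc
It holds 26 CpGs, a number reached by 9.59% of all windows of this length.

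Further called genes had roles in matrix, growth and metabolism. Mfap2, a microfibril protein, was at 21.4, 25.5, 23.8 and 24.5 CPM in the Tet-TKO and 63.1 and 85.8 CPM in the WT host libraries (log2 fold change -1.65, SE 0.15, adjusted p = 0.00239), and was called in both arms. Arg1, the enzyme arginase, was at 13.6, 19.1, 27.01 and 25.7 CPM in Tet-TKO against 65.3 and 101 CPM in WT host (log2 fold change -1.97, SE 0.24, adjusted p = 0.00690), and it was called in Tbx1-bearing cells (log2 fold change -1.42, adjusted p = 0.00713) but not in Tcf21 cells (log2 fold change -1.78, adjusted p = 0.283). Higher in Tet-TKO were Nrk, a kinase gene on the X chromosome, at 33.3, 38.4, 46.6 and 43.7 CPM in Tet-TKO against 11.98 and 11.1 CPM in WT host (log2 fold change 1.79, SE 0.16, adjusted p = 0.00239), and Rprm, a cell cycle inhibitor, at 10.2, 13.5, 10.9 and 15.4 CPM in Tet-TKO against 1.39 and 1.89 CPM in WT host (log2 fold change 2.93, SE 0.31, adjusted p = 0.00361). Rprm in neural-gate cells was at 16.9, 20.7, 24.9 and 21.3 CPM in Tet-TKO against 18.2 and 19.6 CPM in WT host, with overlapping groups. Rgs10, a regulator of G protein signalling, was at 36.4, 50.8, 54.02 and 51.5 CPM in Tet-TKO against 15.98 and 11.8 CPM in WT host (log2 fold change 1.76, SE 0.20, adjusted p = 0.00514), and in neural-gate cells at 11.1, 12.2, 13.7 and 10.1 CPM in Tet-TKO against 13.3 and 13.1 CPM in WT host. On thinned counts Mfap2 (-1.40), Arg1 (-1.64), Nrk (0.88) and Rgs10 (1.44) were not called, and Rprm was too low to be tested. These 5 genes were chosen after their values were seen.

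The genes with the largest fold changes were of other kinds. Among the 12 called genes that fell most in Tet-TKO were the blood genes Mrap, Alas2, Klf1, Cited4 and Gata1, and Ttr, a carrier protein of yolk sac endoderm. Klf1, an erythroid transcription factor, was at 0.500, 0.321, 0.594 and 0.0784 CPM in the Tet-TKO and 7.12 and 7.09 CPM in the WT host libraries, and Alas2, an enzyme of haem synthesis, at 0.286, 0, 0.726 and 0.0784 CPM in Tet-TKO against 8.86 and 16.3 CPM in WT host. Mrap was at 0 in all 4 Tet-TKO libraries and at 5.56 and 8.98 CPM in WT host. All 8 erythroid markers had a log2 fold change below 0 in gated cells and 3 were called lower in Tet-TKO (7 in Tbx1-bearing cells), with a summed level of 7.68 to 564 CPM in Tet-TKO and 3700.5 to 6173 CPM in WT host. In neural-gate cells, which should make none of these transcripts, the sum was 8.52 to 544 CPM in Tet-TKO and 2253 to 5589 CPM in WT host. The 2 arms of the gate were not alike in this. In WT host the sum was 7411 and 6671 CPM in Tbx1 cells, above both neural-gate values, and 2012 and 3000 CPM in Tcf21 cells, while in Tet-TKO it was 9.99 to 132 CPM and 7.78 to 249 CPM. The globin genes Hbb-y (1.99) and Hba-a2 (1.02) were called higher in Tbx1 than in Tcf21 cells over both genotypes. On thinned counts Hbb-y was not called (0.65, edgeR adjusted p = 0.142), whereas Hba-x (1.46) and Hbb-bh1 (1.17) were. The part of free blood RNA in these differences was not tested. Without WT host library 1 or 2 the calls of Klf1 (-4.15 and -4.19) and Alas2 (-5.62 and -4.79) were lost, as was that of Klf1 without Tet-TKO library 2 (-4.14), and that of Mrap was lost without either WT host library. Other genes of this group were Batf, S100g and Nxpe2.

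Calls of another kind fell on near-identical gene copies, whose reads can be assigned to either copy, and on unnamed loci. Rps3a1, a ribosomal protein gene, was at 259, 237, 261 and 291 CPM in the Tet-TKO and 4628 and 4645 CPM in the WT host libraries, while its processed pseudogene Rps3a3 was at 4533, 4354, 3881 and 3881 CPM in Tet-TKO against 366 and 116 CPM in WT host. The order of the genotypes was opposite in the pair, and these values are uncertain for that reason. The copies Rps13-ps1, Rps15a-ps8 and Pcna-ps2, the loci Gm6594, Gm9855, Gm6969, Gm10036, Gm9825 and AA465934, and Eif3j2 were also among the 12 highest in Tet-TKO. C330024D21Rik was at 5.36, 6.104, 5.74 and 5.57 CPM in Tet-TKO and 0 in both WT host libraries. Gm42047 and Sdsl were among the lowest. Xist was at 3.36, 0.321, 2.18 and 0.314 CPM in Tet-TKO against 296 and 304 CPM in WT host and the Y-linked Eif2s3y at 2.36, 1.93, 2.44 and 1.25 CPM in Tet-TKO against 21.02 and 24.6 CPM in WT host, both lower in every Tet-TKO library.

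Values within an arm were not computed for the comparisons of populations that follow. To see where the genotype difference of gated cells departed from that of related cells, it was set against 2 other populations of the same libraries. The cardiomyocyte gate held 797 cells with at least 5 of the 7 heart muscle genes, and the Foxf1 gate held 4803 Isl1-negative cells with at least 2 UMIs of Foxf1, a factor of splanchnic and extraembryonic mesoderm. The term tested is the log2 fold change of Tet-TKO over WT host in gated cells minus that in the other population. Against cardiomyocyte-gate cells 16 of 12356 genes (0.129%) were called, 12 (0.0971%) above 0 and 4 (0.0324%) below. Against Foxf1-gate cells 29 of 14352 genes (0.202%) were called, 16 (0.111%) above 0 and 13 (0.0906%) below.

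The genotype difference of Fgf8 in gated cells was not that in Foxf1-gate cells. It was at 71.2, 69.2, 39.4 and 42.1 CPM in the Tet-TKO and 102 and 92.2 CPM in the WT host libraries in gated cells and, in the opposite order, at 45.8, 36.3, 29.8 and 22.6 CPM in the Tet-TKO and 10.9 and 9.46 CPM in the WT host libraries in Foxf1-gate cells, a difference of the log2 fold changes of -2.53 (SE 0.15, adjusted p = 6.92e-07). In gated cells both WT host libraries were above all of Tet-TKO, and in Foxf1-gate cells both were below. For Nkx2-3, a homeobox factor of pharynx and gut mesoderm, values overlapped between the genotypes in gated cells, at 2.21, 3.86, 5.28 and 4.704 CPM in Tet-TKO against 3.99 and 4.49 CPM in WT host, and Foxf1-gate cells were at 9.48, 9.72, 20.5 and 19.4 CPM in Tet-TKO against 2.71 and 3.54 CPM in WT host (difference -2.34, SE 0.32, adjusted p = 0.00270). Sox9, a factor of cartilage and progenitor cells, was at 19.9, 19.9, 27.5 and 18.6 CPM in Tet-TKO against 29.01 and 45.8 CPM in WT host in gated and 16.6, 15.3, 38.8 and 29.7 CPM in Tet-TKO against 9.06 and 13.95 CPM in WT host in Foxf1-gate cells (difference -1.84, SE 0.26, adjusted p = 0.00306). Ednrb, the endothelin receptor, had a difference above 0, at 6.21, 7.87, 9.91 and 9.72 CPM in Tet-TKO against 3.13 and 3.31 CPM in WT host in gated and 12.6, 20.9, 20.9 and 21.5 CPM in Tet-TKO against 18.03 and 30.96 CPM in WT host in Foxf1-gate cells (difference 1.75, SE 0.24, adjusted p = 0.00277). Without WT host library 1 or 2 the calls of Nkx2-3 (-2.23 and -2.44), Sox9 (-1.85 and -1.81) and Ednrb (2.10 and 1.41) were lost, and that of Fgf8 was not. Of the 230 list genes tested here 6 were called, among them Ebf1, Fgf8 and Hhip below 0 and Hoxb4 and Sparc above it. The Ebf1 call needed Tet-TKO libraries 1 (-1.81 without it) and 3 (-1.63) and WT host library 2 (-1.05), and that of Hhip needed every library except Tet-TKO library 2 (-2.24 to -1.26 without 1 of them).

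Against cardiomyocyte-gate cells, Ccnd2, Lef1 and Bmp4 had lower values in the muscle cells of Tet-TKO but not in its gated cells. Ccnd2, a D-type cyclin, was at 218, 226, 367 and 456 CPM in the Tet-TKO and 246 and 272 CPM in the WT host libraries in gated cells and at 103, 117, 154 and 136 CPM in Tet-TKO against 253 and 254 CPM in WT host in cardiomyocyte-gate cells (difference 1.31, SE 0.16, adjusted p = 0.00178), a call lost without WT host library 1 (1.26) or 2 (1.37). Lef1, a transcription factor of Wnt signalling, was at 101, 83.9, 87.03 and 104 CPM in Tet-TKO against 91.9 and 104 CPM in WT host in gated and 22.5, 23.2, 21.6 and 17.3 CPM in Tet-TKO against 69.5 and 47.9 CPM in WT host in cardiomyocyte-gate cells (difference 1.49, SE 0.21, adjusted p = 0.00445), a call lost without WT host library 1 (1.11). Bmp4 was at 132, 115, 104 and 123 CPM in Tet-TKO against 88.6 and 80.3 CPM in WT host in gated cells, higher in each Tet-TKO library, and at 69.7, 62.3, 58.2 and 55.97 CPM in Tet-TKO against 85.7 and 88.02 CPM in WT host in cardiomyocyte-gate cells, lower in each (difference 1.02, SE 0.13, adjusted p = 0.00178). Tgfb2 was at 87.1, 87.7, 124 and 129 CPM in Tet-TKO against 126 and 139 CPM in WT host in the latter (difference 1.01, SE 0.15, adjusted p = 0.00879). Col2a1, a collagen of cartilage and early matrix, went the other way, at 7.36, 6.104, 11.5 and 9.56 CPM in Tet-TKO against 20.7 and 39.7 CPM in WT host in gated and 115, 111, 232 and 185 CPM in Tet-TKO against 178 and 165 CPM in WT host in cardiomyocyte-gate cells (difference -1.61, SE 0.22, adjusted p = 0.00371), and was not called without Tet-TKO library 2 (-1.61) or 3 (-1.53) or WT host library 2 (-1.07). For Bmp4 the call needed both WT host libraries (1.14 without the first and 0.93 without the second) and also Tet-TKO library 4 (0.94 without it). Tgfb2 was not called when Tet-TKO library 1 (0.92) or 2 (0.95) was left out, nor in the absence of WT host library 1 (1.14) or 2 (0.92). Bmp4, Hapln1, Lef1 and Tgfb2 were the 4 list genes called of 231 tested.

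**Figure D4:**
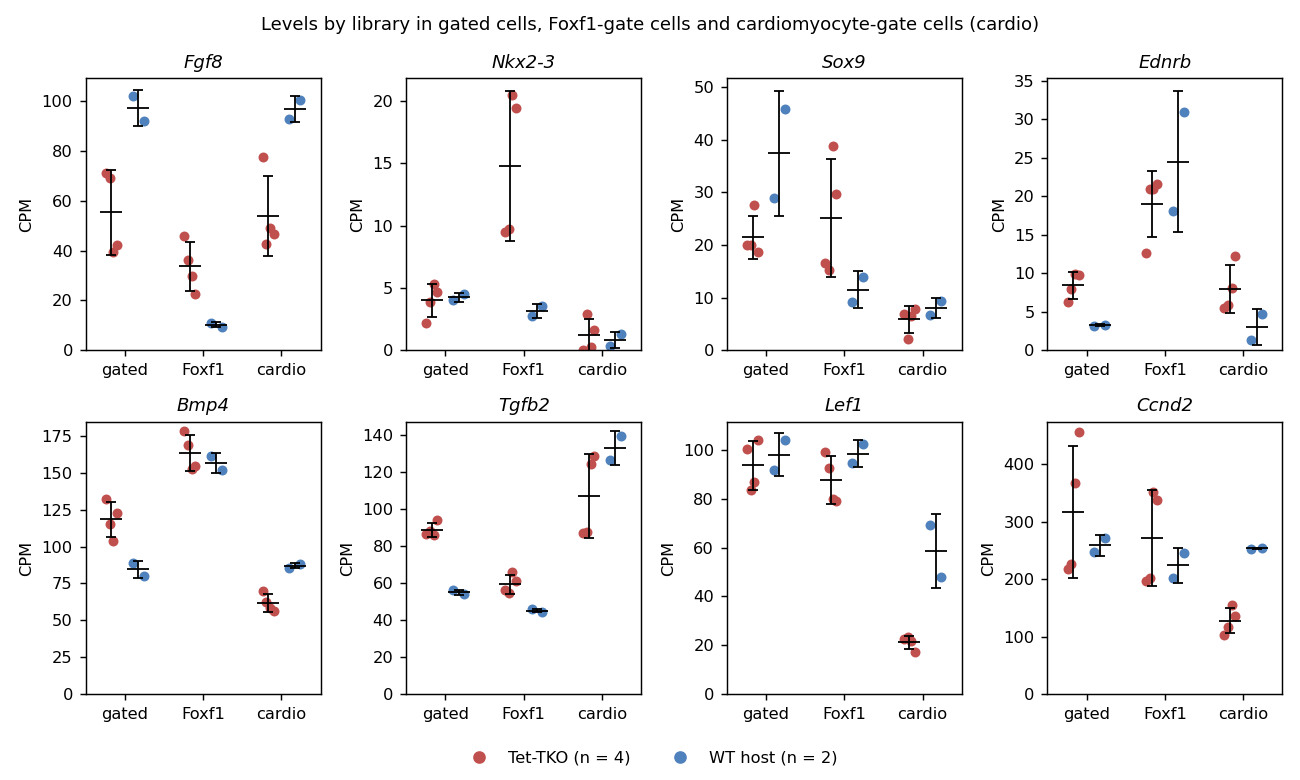
Levels of 8 genes in CPM of summed cells in gated cells, Foxf1-gate cells and cardiomyocyte-gate cells (cardio); each point is 1 library, red for Tet-TKO (n = 4) and blue for WT host (n = 2), with mean and SD in black. For Fgf8 the WT host points lie above Tet-TKO in gated cells and below them in Foxf1-gate cells, and for Ccnd2 and Lef1 the Tet-TKO points lie below WT host in cardiomyocyte-gate cells and overlap with it in the other populations.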

How the data were processed

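Per the labels, sorted cells of chimaeric embryos were profiled with 10x Genomics chemistry. Alignment to mm10, with tdTomato added to the reference, was done by the authors in Cell Ranger, and the deposited values are UMI counts of each gene in each barcode, not normalised. Positions are from GENCODE M21. Barcodes were kept from 1500 UMIs upward, with mitochondrial genes up to 30% and ribosomal protein genes up to 35% of UMIs, as in the study's methods, which left 1008 to 9545 cells per E8.5 library, with median depths of 12178 to 68931 UMIs.

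Counts of gated cells were summed per library and tested across libraries with edgeR 4.0.16 in R 4.3.3 (filterByExpr, TMM, quasi-likelihood test, Benjamini-Hochberg adjustment over all genes tested). Calls needed an adjusted p under 0.01 and an absolute log2 fold change of at least 1. The arms and the populations were compared with library as a block. Shares were compared by an exact permutation test over libraries, with 15 arrangements, and thinning drew 5000 UMIs per cell. The gate and the arms were set again on the thinned counts. Reads of near-identical copies can go to either copy.

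DESeq2 1.42.0, its size factors, no filter, no minimum fold, thinning, equal cell numbers, other gates, removal of doublets (Scrublet score, 0.8% per 1000 cells), tdTomato-matched cells, summed libraries, left-out libraries and a replicate block were tried as alternatives. The fits were tested on simulated data. The members and lists were chosen with earlier results of these data known. By rule the text names the gate genes, list genes that were called, had low p or are well known, in either direction the 12 called genes with the largest genotype change outside the WT host range in every Tet-TKO library, the 8 with the largest change in the other contrasts, and the Tet genes and tdTomato. Genes named outside it are said to be so, and a few genes that it names are not reported here. Libraries of E7.5 were counted in the total of kept cells and otherwise not used here. Python 3.11.15 with scanpy 1.11.5 was used for loading and scoring.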

Additional observations from a re-analysis of the deposited data

Results flagged for a closer look

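In gated cells of Tet-TKO, 1 library lay apart from the other 3 for 3 of the named genes by Dixon's test, which flags about 1 in 20 groups by chance. Fst was lowest in library 4, at 34.2 CPM, and Ttr was lowest there too, at 0.549 CPM. Library 1 was highest for Sdsl, at 0.357 CPM. The test was run on the share and on many of the genes named between the genotypes, so some flags can arise by chance. Ttr and Sdsl rested on few UMIs.

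The genotype difference of gated cells differed from that of cardiomyocyte-gate cells for 16 genes, by the test of the difference itself. The difference of the log2 fold changes, gated minus cardiomyocyte gate, was -1.61 for Col2a1, -1.20 for Asb4, -1.18 for Hapln1, a link protein of matrix, and -1.07 for Col18a1. It was 4.38 for the globin gene Hbb-y, 1.97 for Dcaf12l1, 1.49 for Lef1, 1.32 for the imprinted gene Phlda2, 1.31 for Ccnd2, 1.20 for Car4, 1.19 for Igfbp5 and 1.14 for S100a10. Without Tet-TKO library 3, in which Hbb-y was highest among Tet-TKO gated cells, the value of Hbb-y was 0.23 and was not called.

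Against Foxf1-gate cells the genotype difference differed for 29 genes by the same test. Gated minus Foxf1 gate, it was -2.53 for Fgf8, -2.34 for Nkx2-3, -1.93 for Col2a1, -1.84 for Sox9, -1.78 for the Hedgehog-binding Hhip, -1.77 for Itih5 and -1.69 for Ebf1. Values above 0 were 3.79 for the small heat shock gene Hspb2, 3.55 for the tachykinin gene Tac2, 2.18 for the endothelial factor Sox18, 1.75 for Ednrb, 1.65 for Emp2, 1.55 for Hspb8, 1.48 for Me1 and 1.40 for Gjb5. Of the genes named here, Fgf8 alone kept its call without each of the 6 libraries in turn, and Dcaf12l1 and Phlda2 did so against cardiomyocyte-gate cells. Without WT host library 2 the value of Ebf1 was -1.05.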

How the results depend on the processing

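The difference in the share of gated cells, 7.45 percentage points, was 5.82 to 9.59 points without 1 library, 3.27 without Tet-TKO libraries 3 and 4, 3.27 with a replicate block and 0.299 after thinning. It was 7.02 points with erythroid-gate cells left out of the total and 5.48 with at least 2 Isl1 UMIs. For Tbx1-bearing cells alone it was 1.31, and -0.113 after thinning, where the direction turned. The count of genes called between the genotypes, 78, was 172 with DESeq2 (67 higher and 105 lower in Tet-TKO, all 78 shared), 323 with no filter on low counts, 28 on thinned counts, 36 at equal cell numbers, 33 in cells gated on thinned counts, 36 in Tcf21 cells, and 241 without Tet-TKO libraries 3 and 4. Without 1 library it was 6 to 70, with 6 without WT host library 2, 10 without WT host library 1 and 49 without Tet-TKO library 2. Between the arms the 573 calls became 1526 with no minimum fold and 117 on thinned counts, where Tet-TKO library 4 was left out. They were 482 to 544 without 1 library. Against cardiomyocyte-gate cells the 16 calls became 104 with no filter and 43 without Tet-TKO libraries 3 and 4, with 4 to 28 without 1 library. Against Foxf1-gate cells the 29 became 119 with no filter and 73 with no minimum fold, with 1 to 47 without 1 library. With Tet-TKO libraries 1 and 2 summed, and 3 and 4 summed, 76 genes were called between the genotypes (29 higher and 47 lower in Tet-TKO), 63 of them among the 78, and 11 and 24 against the other gates. Of the genes recomputed under the alternatives, 0 values reversed. The 40 of the genotype comparison kept their side of the threshold in 731 values, lost the call in 139 and gained it in 15. For the interactions 128 of the values against cardiomyocyte-gate cells kept it and 40 lost it, and 127 and 53 did so against Foxf1-gate cells. For 15 of the 16 genes that differed most between the arms all 174 values kept it, while other arm genes lost the call on thinned counts, as given beside them. Several of these alternatives used fewer samples or cells, and the cause of the lost calls was not tested.

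The labels do not say whether replicate numbers pair a Tet-TKO with a WT host library. The paper compares each Tet-TKO sample with a matching host. Deviations from the group mean correlated at 0.206 between libraries numbered 1 and at -0.0799 between those numbered 2, over 12668 genes. With 2 WT host libraries the deviations of 1 mirror those of the other, so these correlations cannot decide on pairing. A replicate block, which uses libraries 1 and 2 of each genotype, called 375 genes between the genotypes, of which 77 were among the 78.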

Other observations

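Values of the Tcf21 cells without Tbx1 that were not given above concern single genes, chosen after they were seen. The chemokine gene Cxcl12 was at 15.7, 19.6, 25.1 and 29.96 CPM in Tet-TKO and 6.29 and 6.97 CPM in WT host (log2 fold change 1.76, adjusted p = 0.0367 by edgeR). Nrk, a kinase gene, was higher in all Tet-TKO libraries of this arm, at 54.2, 60.3, 72.7 and 66.03 against 18.5 and 22.2 CPM (log2 fold change 1.63, SE 0.17, adjusted p = 0.00343), and so was Rprm, at 13.6, 18.9, 13.5 and 22.9 against 1.57 and 1.27 CPM (log2 fold change 3.52, SE 0.46, adjusted p = 0.00918). Plagl1 was higher in both arms, by 2.99 in Tbx1-bearing cells and 1.51 in Tcf21 cells on the log2 scale. The allantois list gave 0 calls of 9 genes between the genotypes in the whole gate by edgeR, with 3 at an unadjusted p under 0.05 and 0 called by DESeq2, and the endoderm list 0 of 7, with 6 at that p and Spink1 called by DESeq2.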
